A study of Mus musculus with 20 samples.

Results

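The 1704 chromatin regions described here had an ATAC-seq peak in all 8 lists made from mouse cardiac fibroblasts after myocardial infarction (MI) and in neither of the 2 lists made from uninjured hearts. ATAC-seq finds accessible chromatin through a transposase that inserts sequencing adapters where DNA is open, and a peak is a stretch in which a peak caller found more insertions than in the surroundings. The 827961 peaks of the 10 deposited lists on chromosomes 1 to 19 and X were merged into 143246 regions wherever they overlapped by 1 base or more, and the 1704 regions were those with that pattern of presence. The regions were chosen by the presence of peaks in the lists, so presence is given as a description with no test, and a missing peak is not a measurement of closed chromatin. Each region was then linked to the nearest gene span within 100000 bases, and the RNA of the linked genes, which played no part in the choice, was compared between MI and uninjured hearts.

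The cells were fibroblasts that carried eGFP through a Tcf21-driven recombinase, sorted from hearts on day 3, day 7, week 2 and week 4 after MI and from uninjured hearts, with 2 ATAC-seq and 2 RNA-seq libraries for each of these 5 groups. All groups, uninjured included, received tamoxifen at 75 mg per kg per day for 5 days to activate the inducible MerCreMer recombinase. Resident fibroblasts of the heart express the transcription factor Tcf21, so the label stays in those cells and in their descendants. Wild-type cells without eGFP served to set the gate of the sort. The sources used here do not give age, strain or sex, and the comparison group is uninjured, with no sham-operated group among the samples. The labels do not say whether the 2 libraries of a group are from different animals, and p-values then measure only how far these samples spread, which may be a technical matter.

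After MI, resident fibroblasts divide, take on a contractile, matrix-secreting state often called the myofibroblast, and later settle into cells that maintain the scar. Such changes of state are accompanied by opening of distal regulatory elements, short stretches of DNA at which transcription factors displace nucleosomes. Factors of the AP-1 family (pairs of Fos and Jun proteins), RUNX and TEAD proteins are known for binding such elements in stimulated mesenchymal cells, and an element can act on a gene other than its nearest one.

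Most of the regions lie away from gene starts, and the sequence available was that of promoters, in RefSeq windows of 300 bases (250 before to 50 after a gene start, GRCm38.p6). Of 32585 windows, 90 windows of 82 genes lay wholly inside 80 of the regions. The 4 windows below lie wholly inside a region, and where in the region the summits fall was not compared with them. They belong to genes whose RNA was higher after MI in at least 1 contrast. They are not all such windows. Pld4, which rose at day 3, day 7, week 2 and in the average over times, and Egfl7, which passed at day 7, are not printed. Emb encodes embigin, a membrane glycoprotein that serves monocarboxylate transporters, Mtus2 encodes a microtubule-associated protein, Pak3 a kinase downstream of Rac and Cdc42, and Slc44a2 a choline transporter. Capitals mark matches, on either strand, to any of 14 short motifs. The Emb and Mtus2 windows hold none of them, the Pak3 window holds an E-box (CATCTGG or its complement), and the Slc44a2 window holds NFI letters (TTGGCA) and a CTCF core (AGGGGGC).
Emb, chr13:117220323-117220622, plus strand: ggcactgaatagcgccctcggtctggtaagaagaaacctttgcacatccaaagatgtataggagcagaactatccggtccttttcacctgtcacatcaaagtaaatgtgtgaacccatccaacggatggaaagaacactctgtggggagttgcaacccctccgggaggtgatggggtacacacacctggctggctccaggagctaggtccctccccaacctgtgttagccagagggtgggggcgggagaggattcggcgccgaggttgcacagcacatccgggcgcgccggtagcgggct
Mtus2, chr5:148264967-148265266, plus strand: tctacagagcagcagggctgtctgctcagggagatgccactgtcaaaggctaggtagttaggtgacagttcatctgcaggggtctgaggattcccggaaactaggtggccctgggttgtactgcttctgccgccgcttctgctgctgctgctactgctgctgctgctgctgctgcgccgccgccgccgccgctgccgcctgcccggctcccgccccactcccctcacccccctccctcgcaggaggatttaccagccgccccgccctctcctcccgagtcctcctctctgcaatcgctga
Pak3, chrX:143518341-143518640, plus strand: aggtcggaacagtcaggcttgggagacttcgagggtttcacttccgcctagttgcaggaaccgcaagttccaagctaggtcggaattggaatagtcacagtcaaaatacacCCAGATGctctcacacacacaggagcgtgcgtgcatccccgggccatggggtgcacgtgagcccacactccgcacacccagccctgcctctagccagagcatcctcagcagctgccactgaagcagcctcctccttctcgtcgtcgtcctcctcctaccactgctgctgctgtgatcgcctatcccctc
Slc44a2, chr9:21337578-21337877, plus strand: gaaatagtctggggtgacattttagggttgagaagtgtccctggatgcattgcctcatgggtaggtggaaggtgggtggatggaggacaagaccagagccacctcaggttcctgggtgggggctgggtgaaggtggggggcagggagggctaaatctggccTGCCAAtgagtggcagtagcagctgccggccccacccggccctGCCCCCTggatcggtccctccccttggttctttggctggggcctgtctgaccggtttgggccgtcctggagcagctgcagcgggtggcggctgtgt

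The AP-1 letters TGANTCA, which read the same on both strands, stood in 16 of the 90 windows inside the regions (17.8%), in 5.18% of the 15297 windows inside regions open in all 10 lists and in 7.85% of all windows. The shares count windows, and windows of 1 gene can overlap, so they are not independent. Those of Arhgef10l hold the same AP-1 matches, and those of Gal3st1 the same SOX letters. Of the 82 genes with a window inside the regions, 42 were in the RNA table, and many others are predicted genes. SOX letters (ACAATGG) were in 8.89% of the windows inside the regions, 1.87% of those inside always-open regions and 3.68% of all. The E-box of Twist and Tcf21 type was in 10.0%, 3.49% and 4.52% of the same 3 sets of windows, in that order, and the NFI letters in 20%, 11.1% and 14.1%. RUNX letters (TGTGGTT) were in 6.67%, 3.46% and 5.29%, and TEAD letters (GGAATGT) in 3.33%, 2.89% and 3.87%. The ETS letters CCGGAAG, common at housekeeping promoters, were in 3.33% of the windows inside the regions, 16.1% of those inside always-open regions and 8.92% of all. The median GC content was 52.5%, 61.0% and 53.0% in the same order, and the median number of CpG pairs was 5.5, 20 and 7, so base composition moves with these shares and its part in them was not tested.
The stretches below are cut 20 bases to each side of AP-1 matches, in capitals, in promoters inside the regions, for genes whose RNA could be tested. A second match of Arhgef10l, and one of Tacc2 that the end of its window cuts short, are not shown.
Hdac9, chr12:34528920-34528966, minus strand: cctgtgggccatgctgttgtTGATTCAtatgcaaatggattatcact
Rnf180, chr13:105293124-105293170, minus strand: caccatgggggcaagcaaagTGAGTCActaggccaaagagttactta
Retreg1, chr15:25940681-25940727, plus strand: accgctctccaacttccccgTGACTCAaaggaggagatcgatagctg
Dhrs9, chr2:69380424-69380470, plus strand: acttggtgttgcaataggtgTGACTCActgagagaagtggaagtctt
Arhgef10l, chr4:140666040-140666086, minus strand: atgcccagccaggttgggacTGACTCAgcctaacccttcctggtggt
Counted in bases from the gene start, the centres of the matches lie at -54 in Hdac9, -133 in Rnf180, -15 in Dhrs9 and 2 in Retreg1, and at -176 from one of the starts of Arhgef10l. None of these 5 genes passed the test of RNA averaged over the 4 times after MI against uninjured. Hdac9, a class IIa histone deacetylase gene, had a log2 fold change of 0.02 (SE 1.29, adjusted p = 1), and Retreg1, an endoplasmic reticulum receptor of autophagy, one of -1.02 (SE 0.51, adjusted p = 0.32). The windows are 90 of 32585, so they describe promoters inside the regions and not the regions at large. The other motifs searched, each on both strands and with overlaps between motifs allowed, were GTCTAGA for SMAD proteins, TAATTA for homeobox proteins, TTGCNNAA for C/EBP proteins, AGATAAG for zinc finger proteins of the GATA family, TGTTTAC for forkhead proteins and TAAAAAT for MEF2 proteins, and their shares are in the plot of motif shares.

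**Figure D1:**
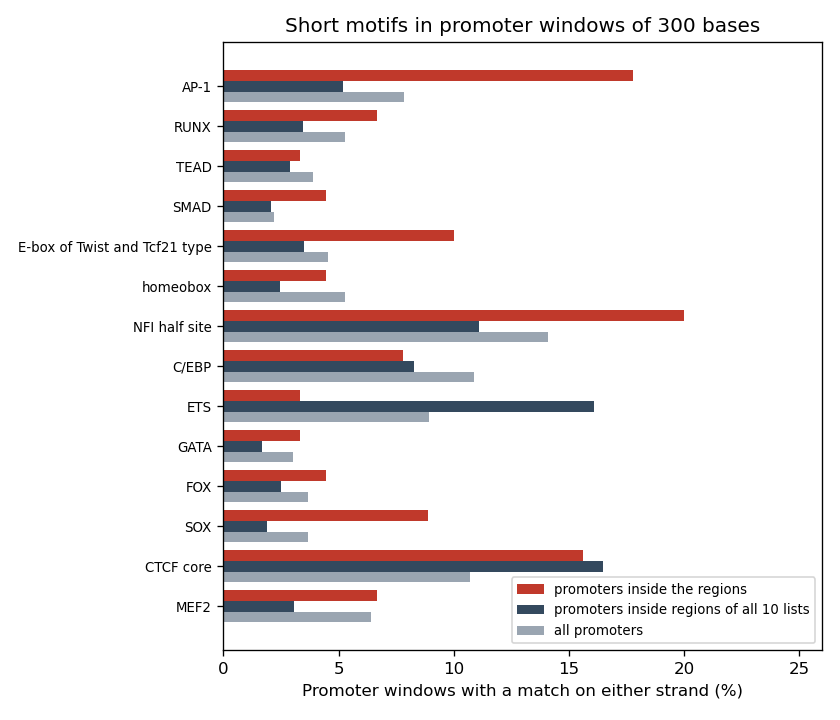
Share of promoter windows of 300 bases with at least 1 match to each of 14 motifs on either strand, for the 90 windows inside the regions (red), the 15297 windows inside regions of all 10 lists (dark) and all 32585 windows (grey). AP-1, SOX and E-box letters stand at 17.8%, 8.89% and 10.0% inside the regions, and ETS letters at 3.33% against 16.1% inside always-open regions.

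Between 16397211 and 21043997 expected counts stood behind each RNA library, and each peak list had 63882 to 107774 peaks on chromosomes 1 to 19 and X, with unknown read depth. The day 3, day 7 and week 4 groups each had 1 RNA library with Y-linked reads (0.0124% to 0.0314% of counts) and 1 with next to none, both week 2 libraries had them (0.0429% and 0.0426%), and both uninjured libraries had next to none (2.43e-05% and 6.24e-05%). Results with this difference as a term in the model are therefore given beside the main ones. Week 2 replicate 2 stood apart on the third principal component of expression (-132, against -18.1 to 55.4 in the other 9 libraries). It is also the one RNA library whose sample code begins with B, the others beginning with C, and whether the letter marks a batch is not stated. Mitochondrial genes took 1.36% and 1.07% of counts at day 3, 1.26% and 1.43% at day 7, 4.21% and 1.15% at week 2, and 0.987% and 1.49% at week 4, against 2.66% and 2.71% in uninjured libraries, and the part of this in the results was not tested. Summed levels of 10 fibroblast markers were 24010 to 52490 CPM (counts scaled to a common library size) after MI and 35510 to 38590 CPM in uninjured cells. Those of 20 macrophage and monocyte markers were 962.0 to 1658 CPM at day 3, 2940 to 4806 CPM at day 7, 778.8 to 1108 CPM at week 2, 333.5 to 461.0 CPM at week 4, and 127.6 to 127.8 CPM in uninjured cells, none of them at 0 in all libraries.

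Presence in the lists fell off steadily before the chosen set. Among regions with no uninjured peak, 33880 had a peak in only 1 of the 8 MI lists, 3629 in 5, 2870 in 6, 1921 in 7 and 1704 in 8. Just outside the rule stood those 1921 regions and another 2602 that had peaks in all 8 MI lists and in 1 uninjured list. Of the 2602, 1925 were kept out by uninjured replicate 2 and 677 by uninjured replicate 1. Of the 1921, the week 4 lists were the missing ones for 658 (replicate 1) and 616 (replicate 2), against 40 to 144 for each of the other 6 lists. The week 4 lists were also the shortest of the MI lists, with 69207 and 70123 peaks, against 77885 to 107774 at the earlier times. For comparison, 38922 regions were in all 10 lists, 2048 only in the 4 lists of day 3 and day 7, and 697 in both uninjured lists and no MI list. The sample codes begin with A for both uninjured lists and 4 MI lists, and with B for the other 4 MI lists. Without the B lists 6808 regions met the rule, and without the A lists among the MI ones 2537 did. Both day 3 lists carry A and both week 4 lists carry B, while day 7 and week 2 have 1 of each. Leaving out the B lists therefore removes both week 4 lists, and letter and time cannot be told apart in these counts.

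**Figure D2:**
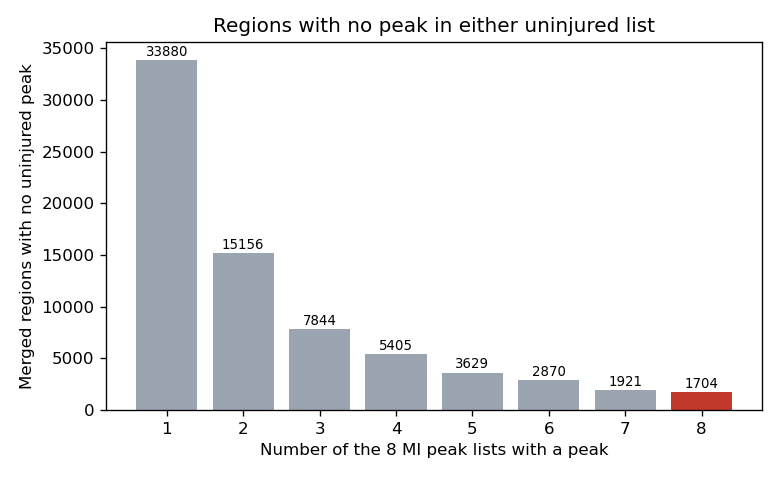
Number of merged regions with no peak in either uninjured list, by the number of the 8 MI lists that hold a peak. The count goes from 33880 regions with 1 list to 1704 regions with all 8 (red).

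The regions were mostly distal. Only 87 of the 1643 that lie on chromosomes with annotated starts (5.30%) held a gene start of the RefSeq table, which does not list every start, against 29.4% of always-open regions, 5.14% of the regions of day 3 and day 7 only, and 9.82% of all merged regions. In all, 936 of 1704 (54.9%) overlapped a gene span, against 67.9% of always-open regions and 60.4% of all. Their median width was 1750 bases, with a 10th to 90th percentile range of 1112 to 3149, against medians of 2759 bases for always-open regions and 1169 for all. Merging widens regions that are present in many lists. The nearest uninjured peak was at a median of 5638 bases, and for 131 of the regions it lay within 1000 bases, so those stand at the edge of chromatin that already had a peak before injury. In 275 regions the summits of the 8 lists fell within 200 bases of each other, and the median spread of the summits was 378 bases. The regions made up 15.2 of every 1000 merged regions on chromosome 13 and 15.1 on chromosome 16, and 7.02 on the X chromosome, the lowest share.

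The authors' fold enrichment of a peak over its surroundings was modest in these regions. The median over the 1704 regions was 6.72 and 7.14 in the day 3 lists, 6.71 and 6.21 at day 7, 6.64 and 5.84 at week 2, and 4.66 and 4.28 at week 4. The always-open regions had medians of 19 and 18.2 in the day 3 lists, 14.5 and 11.4 at day 7, 15.3 and 14.6 at week 2, and 12.2 and 10.6 at week 4. Within its own list, the median region stood at percentile 52.0 and 57.0 at day 3, 56.9 and 57.8 at day 7, 49.2 and 45.5 at week 2, and 35.7 and 36.6 at week 4. These places were lowest at week 4, but the lists differ in length, so a change over time cannot be judged from them. At each time the regions were mid-range or lower peaks. Only 131 of the 1704 stood at or above the middle of all 8 lists, and 1 stood at or above the 75th percentile in all 8.

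**Figure D3:**
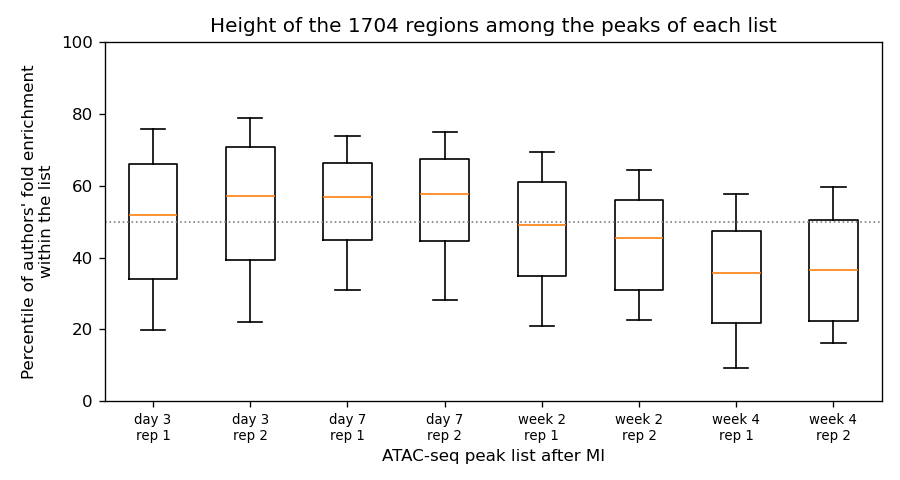
Place of the 1704 regions among all peaks of each MI list, as the percentile of the authors' fold enrichment within that list. Orange lines are medians, boxes quartiles, whiskers the 10th and 90th percentiles, and the dotted line the middle of the list; medians run between 35.7 and 57.8.

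The region with the highest worst place is short, 367 bases at chr9:35305223-35305589 (GRCm38), 27492 bases from Rpusd4, which encodes a pseudouridine synthase of mitochondrial RNA. Its fold enrichment was 23.8 and 19.2 at day 3, 40.8 and 37.2 at day 7, 35.2 and 34.8 at week 2, and 29.1 and 37.5 at week 4. An uninjured peak lay 1681 bases away. The other 5 of the 6 highest were chr8:122185101-122188147 inside the long span of the predicted gene Gm20388, chr4:89424989-89429056 at 113950 bases from Cdkn2b, chr4:107456784-107460365 in Glis1, chr2:30870342-30871940 in Prrx2 and chr16:93246099-93247918 at 335539 bases from Setd4. Glis1 encodes a zinc finger factor and Prrx2 a homeobox factor of mesenchyme. Those 2 near Cdkn2b and Setd4 lay beyond the limit of 100000 bases and had no linked gene.

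The regions were partly clustered along chromosomes. While 1251 stood alone, 453 lay within 50000 bases of another, in 193 groups, of which 15 held 4 or more. Both groups of 6 were the largest. One at chr16:93092438-93187671 lay 266289 bases from Runx1, its nearest gene span, and so added no link to that gene. The other lay inside Plekha7 at chr7:116161448-116284235. Groups of 5 lay inside Palld (chr8:61569190-61649476), 5121 bases from Esf1 (chr2:140093375-140114762), and 61162 bases from Cdkn2b (chr4:89372201-89460758).

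In all, 1562 regions had a gene span within 100000 bases and 142 had none. The farthest linked region was 98782 bases from its gene, and the nearest one left unlinked 103070 bases. With 50 regions tied between genes at the same distance, there were 1613 links to 1291 genes, of which 117 had no count in any library and 1072 passed the filter on low counts. These 1072 were 7.16% of the 14968 genes tested. The linked genes are long: the median span was 71671 bases, against 21859 bases over all genes tested, and a long gene is more easily the nearest one. For genes with 3 or more regions it was 187251 bases.

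RNA of the linked genes was higher after MI more often than lower, as was that of all genes tested. At day 3, 88 of 1072 (8.21%) rose and 66 (6.16%) fell against uninjured, where 7.39% of all genes tested rose and 4.4% fell. The share that rose at day 3 was thus close to the background, and the share that fell stood above it. At day 7, 105 (9.79%) rose and 31 (2.89%) fell, against 4.39% and 2.76% of all genes. At week 2, 63 (5.88%) rose and 4 (0.373%) fell, against 1.44% and 0.454%. At week 4, 79 (7.37%) rose and 8 (0.746%) fell, against 1.85% and 0.474%. Averaged over the 4 times, 88 (8.21%) rose and 20 (1.87%) fell, against 2.81% and 2.16%. In either direction, 11.8%, 7.15%, 1.89%, 2.32% and 4.96% of all genes passed in these 5 contrasts, in the order given. The median log2 fold change of the linked genes was 0.01 at day 3, 0.29 at day 7, 0.26 at week 2 and 0.37 at week 4, and over all genes tested it was -0.02, 0.00, -0.01 and 0.00. These contrasts share the uninjured libraries, and without uninjured replicate 2 the calls fell to 42 for the average over times, 36 at week 2 and 33 at week 4. The share that rose, with each library left out in turn, was 3.17% to 8.34% of the linked genes and 0.896% to 3.15% of all genes for the average. With Y-linked reads as a term, 49 linked genes (4.57%) rose and 6 fell in the average, against 1.27% of all genes that rose. In the same fit 23 linked genes (2.15%) rose and 0 fell at week 2, against 0.334% of all genes that rose. For week 4 it gave 51 (4.76%) that rose and 3 that fell, against 0.909% of all genes that rose.

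In 110 of the 1072 linked genes (10.3%) all 8 MI libraries lay above both uninjured libraries, against 3.98% of all genes tested. In 49 (4.57%) all 8 lay below, against 5.74%. The share that rose was also counted by the number of regions per gene. Of the 192 genes with 2 or more regions, 32 (16.7%) rose in the average over times and 2 fell. Of the 59 genes with 3 or more, 18 (30.5%) rose and 0 fell, with a median log2 fold change of 0.79; without uninjured replicate 1 or 2 the 18 became 11 or 10. Genes with a region inside their span rose in 61 of 699 cases (8.73%), and genes with regions only outside it in 27 of 373 (7.24%). The 1238 genes linked to the regions of day 3 and day 7 only rose in 7.84% of cases at day 3, 6.46% at day 7, 2.83% at week 2 and 2.42% at week 4. These sets share genes and no test of the difference between them was made. Expression also went up with the number of regions. The median log2 CPM was 5.03 with 3 or more, 4.53 with 2 or more, 4.31 for all linked genes and 4.07 for all genes tested. Gene span went up too, with medians of 187251 bases with 3 or more, 131763 with 2 or more and 71671 for all linked genes. Over all genes tested the median span was 21859 bases. The part of expression level and of gene span in these shares was not tested.

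**Figure D4:**
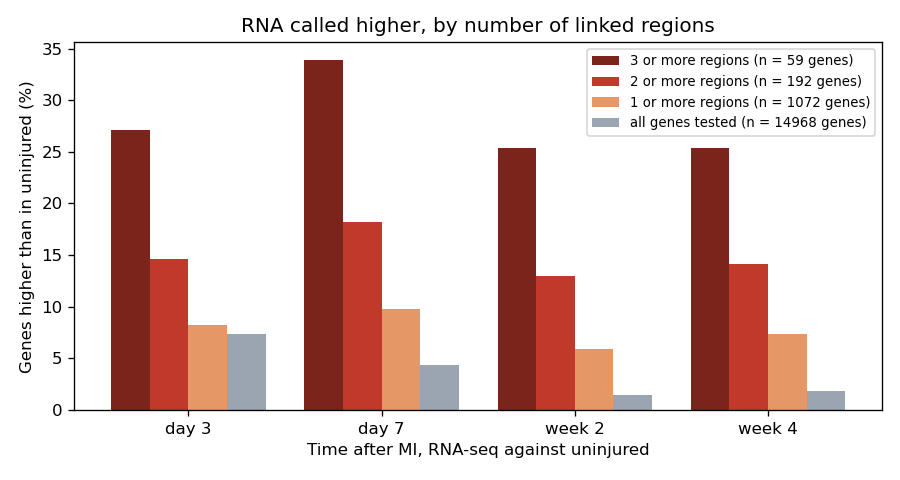
Percent of genes called higher at each time after MI against uninjured (edgeR, adjusted p under 0.05), for genes linked to 3 or more, 2 or more and 1 or more of the regions, and for all 14968 genes tested. Genes with 3 or more regions stand at 27.1%, 33.9%, 25.4% and 25.4% from day 3 to week 4, and all genes at 7.39%, 4.39%, 1.44% and 1.85%; the sets are nested.

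The 18 that rose among genes with 3 or more regions were Actn1, Cdh2, Cdkn2b, Fn1, Foxp1, Hhat, Kif26b, Lclat1, Lox, Mical2, Myo1d, Nedd9, Nrp2, Nuak1, Palld, Piezo2, Runx1 and Uck2. Among them, Mical2 encodes an enzyme that oxidises actin, Nedd9 an adaptor of focal adhesions, Piezo2 a mechanically gated channel and Nrp2 a receptor for semaphorins and VEGF. Nedd9 had 134 and 123 CPM at day 3, 336 and 307 at day 7, 327 and 304 at week 2, and 281 and 364 at week 4, against 119 and 87.6 CPM in uninjured cells. Its day 3 libraries were close to the uninjured ones and the later 6 stood above them (average log2 fold change 1.3, SE 0.19, adjusted p = 0.0018). Piezo2 had 10.3 and 19.5 CPM at day 3, 32.7 and 24.6 at day 7, 44.5 and 42.0 at week 2, and 38.6 and 54.7 at week 4, against 9.06 and 9.43 CPM in uninjured cells (1.72, SE 0.34, adjusted p = 0.012). Its highest libraries were those of weeks 2 and 4.

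Among transcription factors, Runx1, a RUNX family factor known from blood and from activated mesenchyme, had 6 regions, with Plekha7 the highest number among genes whose span overlaps no other. Of these, 4 lay inside the gene, at chr16:92614249-92617418, chr16:92710229-92711143, chr16:92761413-92762829 and chr16:92787899-92790139, the third of them holding the annotated start of the predicted gene Gm30281. The last of these had a fold enrichment of 18.5 and 14.7 at day 3, 7.78 and 5.46 at day 7, 6.64 and 5.05 at week 2, and 4.66 and 5.54 at week 4. The other two were 21603 and 77456 bases outside it. Runx1 RNA was 72.8 and 69.6 CPM at day 3, 79.0 and 84.4 at day 7, 114 and 142 at week 2, and 82.4 and 96.7 at week 4, against 18.1 and 7.5 CPM in uninjured cells. All 8 MI libraries were above both uninjured ones, week 2 highest, and the rise passed at each time, with log2 fold changes of 2.47 (SE 0.36, adjusted p = 0.0012) at day 3 and 2.8 (SE 0.36, adjusted p = 0.0021) at week 4. The Runx1 call held without each library in turn and with Y-linked reads as a term. Week 4 against day 3 gave 0.33 (adjusted p = 0.58).

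Of the list of 24 Runx, Meox and mesenchymal factors, 7 were linked, and Runx1 alone rose in the average over times. The median of the 7 was 0.64. Runx2, the RUNX factor of bone, with 2 regions in its span, had 19.1 and 19.9 CPM at day 3, 20.7 and 6.87 at day 7, 21.7 and 21.2 at week 2, and 14.6 and 16.2 at week 4, against 1.71 and 9.06 CPM in uninjured cells (1.68, SE 0.61, adjusted p = 0.16). Day 7 replicate 2 fell below the higher uninjured library. Meox1, a homeobox factor of fibroblast activation, has 1 region 34236 bases away, at chr11:101841860-101843274. It had 358 and 421 CPM at day 3, 300 and 345 at day 7, 371 and 299 at week 2, and 561 and 541 at week 4, against 276 and 254 CPM in uninjured cells, and week 4 stood above all other groups. At week 4 the log2 fold change was 1.05 (SE 0.2, adjusted p = 0.018), a call lost without either uninjured or either week 4 library (adjusted p = 0.076 to 0.2), and in the average it was 0.56 (adjusted p = 0.079). Of the 17 AP-1 and immediate-early factors, 4 were linked (Fos, Atf3, Egr2, Bach2), 0 rose, and Atf3 fell (-1.18, SE 0.27, adjusted p = 0.026), a call lost without uninjured replicate 2, either day 7 library or week 2 replicate 2 (adjusted p = 0.051 to 0.46).

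Contractile and cytoskeletal genes were linked in 6 of 22 cases, with 14 links. Palld and Actn1 rose and the other 4 (Tpm1, Vcl, Lmod1, Cald1) did not pass in the average, and the median of the 6 was 0.80. In the whole list of 22, 6 rose and 0 fell. Palld encodes palladin, which organises actin filaments, and has 5 regions inside its span. The tallest, chr8:61644933-61649476, lies 65 bases from an annotated start, with fold enrichment of 24.7 and 22.4 at day 3, 24.2 and 20.4 at day 7, 30.9 and 19.9 at week 2, and 11.4 and 6.55 at week 4. Palld RNA was 170 and 259 CPM at day 3, 251 and 215 at day 7, 218 and 300 at week 2, and 124 and 155 at week 4, against 51.1 and 17.3 CPM in uninjured cells, with no overlap. Its average log2 fold change was 2.59 (SE 0.39, adjusted p = 0.0036). Actn1, alpha-actinin of stress fibres and adhesions, with 4 regions, had 139 and 152 CPM at day 3, 161 and 166 at day 7, 100.7 and 179 at week 2, and 214 and 180 at week 4, against 35.0 and 23.4 CPM in uninjured cells (2.46, SE 0.27, adjusted p = 0.00027). Tpm1, a tropomyosin with 2 regions, had an average of 0.55 (adjusted p = 0.12). Acta2, the smooth muscle actin that marks myofibroblasts, had no linked region.

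Kif26b, a kinesin family gene, has 5 regions inside its span, of which 3 lie 109126, 112950 and 125149 bases from the nearest uninjured peak. Its RNA was 14.7 and 24.2 CPM at day 3, 35.9 and 67.2 at day 7, 35.8 and 28.5 at week 2, and 9.65 and 16.6 at week 4, against 0 and 0.161 CPM in uninjured cells. The uninjured libraries held 0 and 3 counts of it, and the pooled ratio of MI to uninjured CPM was 361 (95% exact interval 123 to 1750, counting error only; adjusted p = 0.00011). Cdh2, N-cadherin, with 4 regions on chromosome 18, had 78.6 and 78.3 CPM at day 3, 129 and 74.1 at day 7, 69.5 and 52.0 at week 2, and 31.1 and 49 at week 4, against 12.6 and 6.91 CPM in uninjured cells (2.77, SE 0.36, adjusted p = 0.00086). Both Kif26b and Cdh2 had all 8 MI libraries above both uninjured ones, with the lowest MI values at week 4.

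**Figure D5:**
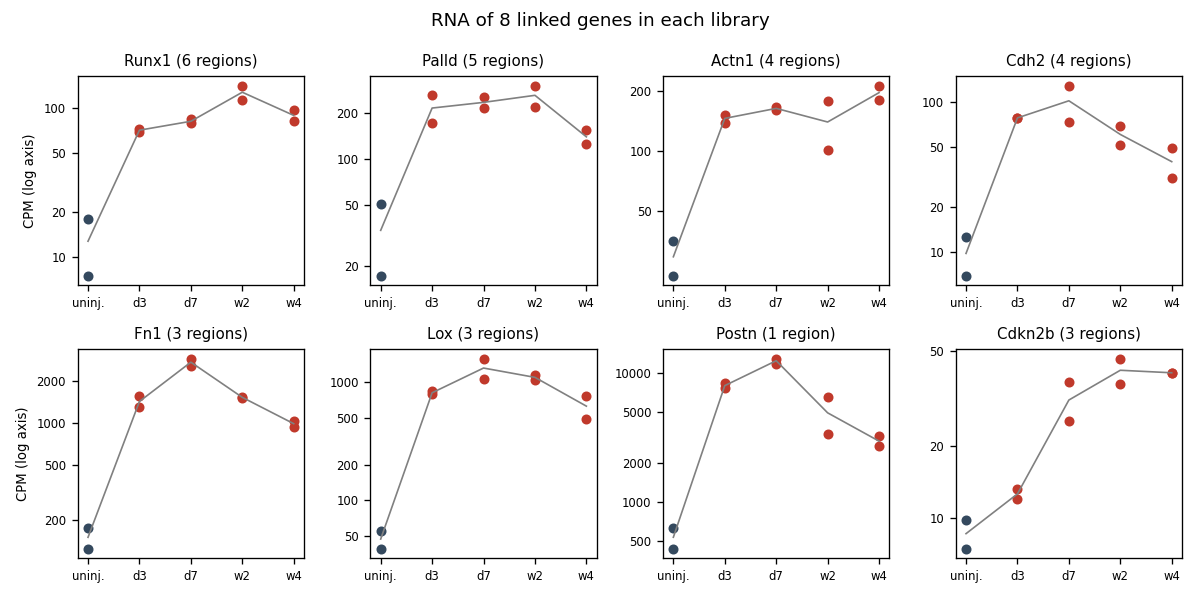
CPM of 8 linked genes in each RNA library on a log axis, after MI (red: d3, d7, w2 and w4 for day 3, day 7, week 2 and week 4) and uninjured (dark, at the left end as the baseline), with a line through the group means. In all 8 genes every MI library lies above both uninjured ones; Cdkn2b has its day 3 libraries (12 and 13.2 CPM) near them.

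Matrix genes were unevenly represented. Of 30 matricellular and matrix glycoprotein genes, 6 were linked, 4 rose and 0 fell in the average, with a median of 2.73. In the whole list 13 rose and 1 fell. The linked genes that did not pass in the average, Fbln1 and Fbln5, both fell at day 3. Fbln1 had log2 fold changes of -2.75 at day 3 and -1.24 at day 7, both of which passed. Its values of 0.222 at week 2 and 1.14 at week 4 did not pass. Fn1, fibronectin, has 3 regions inside its span, at chr1:71600273-71604357, chr1:71637924-71639735 and chr1:71640134-71644385. It had 1290 and 1550 CPM at day 3, 2550 and 2890 at day 7, 1530 and 1510 at week 2, and 932 and 1030 at week 4, against 175 and 124 CPM in uninjured cells. The average log2 fold change of Fn1 was 3.37 (SE 0.22, adjusted p = 1e-05), with day 7 the highest group and no overlap with uninjured. Postn, periostin, a secreted protein of activated fibroblasts, has 1 region 52298 bases beyond its span, chr3:54443335-54444534. It had 8280 and 7630 CPM at day 3, 11800 and 12900 at day 7, 6440 and 3330 at week 2, and 3210 and 2690 at week 4, against 630 and 431 CPM in uninjured cells (3.53, SE 0.31, adjusted p = 4.6e-05). The region's fold enrichment was 16.3 and 14.3 at day 3, 13.7 and 13.4 at day 7, 15.3 and 12 at week 2, and 7.57 and 5.79 at week 4.

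Ccn4 and Ccn2 are matricellular genes of the CCN family. Ccn4 had 205 and 338 CPM at day 3, 290 and 360 at day 7, 155 and 237 at week 2, and 41.3 and 67.3 at week 4, against 2.67 and 6.06 CPM in uninjured cells (5.33, SE 0.44, adjusted p = 6.5e-05). Ccn2, a target of TGF-beta and YAP, has a region 5072 bases from its span and 287 bases from an uninjured peak. It had 280 and 354 CPM at day 3, 795 and 370 at day 7, 554 and 1410 at week 2, and 1200 and 1340 at week 4, against 133 and 194 CPM in uninjured cells. By group mean, Ccn4 was highest at day 7 and Ccn2 at week 4, although the highest single Ccn2 library was week 2 replicate 2. The average for Ccn2 was 2.08 (SE 0.41, adjusted p = 0.017), which was lost when either uninjured library or week 4 replicate 2 was left out (adjusted p = 0.056 to 0.26). Of 16 collagen genes only Col8a2, a network collagen, was linked, while 10 of the list rose in the average; Col1a1, Col1a2 and Col3a1 had no linked region, nor did Tnc, Cthrc1, Thbs1, Ltbp2, Comp or Fap.

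Of 20 genes for collagen processing and crosslinking, 4 were linked and 3 rose, with a median of 2.92; in the whole list 7 rose and 1 fell. Lox, lysyl oxidase, which crosslinks collagen and elastin, has 3 regions 28389, 33338 and 40543 bases away. It had 792 and 836 CPM at day 3, 1590 and 1060 at day 7, 1150 and 1050 at week 2, and 483 and 770 at week 4, against 54.7 and 38.6 CPM in uninjured cells (4.32, SE 0.29, adjusted p = 1.1e-05). P4ha3, a subunit of prolyl 4-hydroxylase, with a region inside its span at chr7:100308540-100310569, had 75.7 and 86.6 CPM at day 3, 132 and 91.8 at day 7, 55.4 and 95.8 at week 2, and 65.7 and 51.0 at week 4, against 3.09 and 2.84 CPM in uninjured cells (4.74, SE 0.35, adjusted p = 1.4e-05). Both genes had every MI library above both uninjured ones. Plod2, which hydroxylates collagen lysines, rose (1.53, SE 0.2, adjusted p = 0.00084), and Adamts2, which removes the procollagen N-propeptide, had 0.76 (adjusted p = 0.12).

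The other largest rises among well-expressed linked genes were Gpr176, C1qtnf3, Ddah1 and Kcnj15. Gpr176, an orphan G protein-coupled receptor, had 48.7 and 55.0 CPM at day 3, 56.1 and 49.3 at day 7, 35.9 and 34.6 at week 2, and 35.3 and 32.9 at week 4, against 0.16 and 0.0536 CPM in uninjured cells, which held 3 and 1 counts. Its pooled ratio was 407 (95% exact interval 159 to 1490, counting error only; adjusted p = 2e-06). Its region, chr2:118296884-118299063, lies inside the gene and 304 bases from an uninjured peak. Ddah1, which breaks down methylated arginines that inhibit nitric oxide synthase, had 215 and 334 CPM at day 3, 755 and 904 at day 7, 408 and 937 at week 2, and 250 and 256 at week 4, against 18 and 9.06 CPM in uninjured cells (5.04, SE 0.45, adjusted p = 0.00015). C1qtnf3, a secreted C1q-related protein, had 129 and 70.5 CPM at day 3, 1090 and 1260 at day 7, 566 and 764 at week 2, and 28.0 and 96.6 at week 4, against 8.69 and 6.59 CPM in uninjured cells. It peaked at day 7, and its average of 5.11 (SE 0.56, adjusted p = 0.00097) was lost without uninjured replicate 2 (adjusted p = 0.09). Kcnj15, an inward rectifier potassium channel, averaged 4.33 (SE 0.48, adjusted p = 0.00037).

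Some linked genes were near their uninjured level at day 3 and higher later. Cdkn2b, which encodes the cell cycle inhibitor p15, has 3 linked regions, and those at 61162 and 74601 bases belong to a group of 5 whose other members lie beyond the limit. It had 12 and 13.2 CPM at day 3, 37.1 and 25.4 at day 7, 36.6 and 46.6 at week 2, and 40.7 and 40.5 at week 4, against 7.41 and 9.76 CPM in uninjured cells. The log2 fold change was 0.56 (adjusted p = 0.37) at day 3 and 2.24 (adjusted p = 0.0079) at week 4, the second lost without either uninjured library (adjusted p = 0.051 to 0.071), and week 4 against day 3 gave 1.69 (adjusted p = 0.0095). The average over times, 1.73 (SE 0.32, adjusted p = 0.0073), was lost without either uninjured library (adjusted p = 0.072 to 0.11), and the difference between week 4 and day 3 without day 3 replicate 2 or week 4 replicate 1 (adjusted p = 0.056 to 0.058). Myo1d, an unconventional myosin with 5 regions inside its span, had 12.5 and 17.5 CPM at day 3, 52.6 and 45.8 at day 7, 56.9 and 22.6 at week 2, and 122 and 77.5 at week 4, against 14.7 and 15.8 CPM in uninjured cells. Its day 3 values straddled the uninjured ones (-0.03, adjusted p = 0.99), and week 4 passed (2.71, SE 0.43, adjusted p = 0.0063). The week 4 call of Myo1d held without each library. Its average of 1.44 (SE 0.36, adjusted p = 0.037) was lost without either uninjured library or week 4 replicate 1 (adjusted p = 0.062 to 0.25).

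Week 4 against day 3 gave 116 linked genes higher (10.8%) and 58 lower (5.41%), where 5.84% of all genes were higher and 7.52% lower (13.4% in either direction). Week 4 against day 7 gave 22 higher (2.05%) and 17 lower (1.59%), against 0.895% and 1.52% (2.42% in either direction), but without day 7 replicate 2 edgeR called 0, with 144 linked genes at an unadjusted p under 0.05, and without week 4 replicate 1 it called 4. DESeq2 called 107 linked genes with all libraries in. Fn1 and Postn were lower at week 4 than at day 7, with log2 fold changes of -1.47 (SE 0.23, adjusted p = 0.009) and -2.07 (adjusted p = 0.0083), though both remained above uninjured. Both calls were lost without day 7 replicate 2, that of Fn1 also without week 4 replicate 1 (adjusted p = 0.064 to 0.098 for Fn1 and 0.053 for Postn).

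A smaller number of linked genes fell. Enpp2, which encodes the lysophospholipase D autotaxin, had 112 and 33.9 CPM at day 3, 51.0 and 40.6 at day 7, 87.2 and 68.5 at week 2, and 109 and 80.3 at week 4, against 550 and 586 CPM in uninjured cells (-3.01, SE 0.29, adjusted p = 0.00032). Qpct, glutaminyl cyclase, had 127 and 71.5 CPM at day 3, 156 and 99.9 at day 7, 164 and 138 at week 2, and 195 and 164 at week 4, against 440 and 446 CPM in uninjured cells (-1.7, SE 0.2, adjusted p = 0.00051). Enpp3, a nucleotide pyrophosphatase, had 60.5 and 73.6 CPM at day 3, 47.3 and 44.9 at day 7, 39.2 and 49.1 at week 2, and 39.6 and 46.3 at week 4, against 148 and 108 CPM in uninjured cells (-1.38, SE 0.19, adjusted p = 0.0014). In these 3 genes every MI library lay below both uninjured ones, although their regions had no uninjured peak. Hs3st1 (-2.32, adjusted p = 0.0022), a heparan sulfate sulfotransferase, and Abca8b (-2.15, adjusted p = 0.0028), an ABC transporter, fell as well. Cystm1, Spry4 (an inhibitor of receptor tyrosine kinase signalling) and Creb5 fell by 1.83, 1.38 and 1.3, and leaving out uninjured replicate 2 ended each call (adjusted p = 0.23 for Spry4 and 0.15 for Creb5), that of Cystm1 with either uninjured library left out (0.05 to 0.086).

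The number of regions did not go with a change in RNA for every gene. Gm20388 had 10 linked regions and Fgfr2 had 8, but their spans in the deposited table cover 4434882 and 2960900 bases and overlap 83 and 38 other genes, so their links are not specific. Fgfr2, a receptor of fibroblast growth factors, was at 0.712 and 0 CPM at day 3, 8.47 and 1.21 at day 7, 2.94 and 11.1 at week 2, and 4.33 and 5.55 at week 4, against 1.49 and 1.29 CPM in uninjured cells (1, SE 1.25, adjusted p = 0.77). Plekha7, an adherens junction protein whose span overlaps no other gene, holds 6 regions and was at 0.653 and 3.99 CPM at day 3, 1.53 and 8.2 at day 7, 7.05 and 3.38 at week 2, and 5.07 and 1.22 at week 4, against 0.107 and 1.88 CPM in uninjured cells (1.89, SE 1.37, adjusted p = 0.53). At such levels the libraries of a group differed several-fold, and no difference was detectable. Esf1, a nucleolar protein, with 5 regions, had -0.01 (SE 0.26, adjusted p = 1), Klhl29 2.37 (SE 0.69, adjusted p = 0.072) and Rai14, an actin-binding protein, 1.38 (SE 0.36, adjusted p = 0.05, just missing the threshold).

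In the next 6 lists, 26 tested genes were linked and 3 (11.5%) rose in the average, against 2.81% of all genes and 8.21% of all linked genes. Of 30 TGF-beta, BMP and activin genes 5 were linked and Fst rose, while in the whole list 4 rose and 2 fell. Fst averaged 1.8 (SE 0.33, adjusted p = 0.0081). It encodes follistatin, which binds activins, and its call was lost without uninjured replicate 2 (adjusted p = 0.12). Of 23 Wnt genes 7 were linked and Sfrp1, a secreted Wnt antagonist, rose (0.88, SE 0.21, adjusted p = 0.033), a call lost without uninjured replicate 2, day 7 replicate 2 or week 4 replicate 2 (adjusted p = 0.055 to 0.5), while 4 rose and 0 fell in the whole list. Of 22 IGF, PDGF and FGF genes 7 were linked and 0 passed in the average, with a median of 0.10, while in the whole list 4 rose and 3 fell. Of 17 integrin and adhesion genes 3 were linked and Cdh2 rose, with 3 higher and 1 lower in the whole list. Of 15 SRF, YAP and TEAD regulators 3 were linked and 0 passed, with a median of 0.74, and 1 rose and 0 fell in the whole list. Proteases and their inhibitors had 1 linked gene of 23, Adamts6, which did not pass (1.37), and 3 rose and 1 fell in the whole list.

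Of 21 cartilage and tendon matrix genes, a group known to appear in the mature scar, 6 were linked and 2 rose, Matn3 and Cilp. Matn3, a matrilin of cartilage, had 6.59 and 3.49 CPM at day 3, 10.9 and 12.9 at day 7, 26.3 and 7.14 at week 2, and 3.53 and 9.11 at week 4, with 0 counts in both uninjured libraries. Against a floor of 3 counts per library (0.16 CPM) its pooled level after MI was at least 62.9-fold higher. Cilp averaged 2.6 (SE 0.58, adjusted p = 0.038), a call lost without any of 8 of the 10 libraries (adjusted p = 0.051 to 0.58). Of 22 cytokines and chemokines 5 were linked and Spp1, osteopontin, rose, with 1000 and 1690 CPM at day 3, 579 and 670 at day 7, 267 and 210 at week 2, and 220 and 214 at week 4, against 33.6 and 22 CPM in uninjured cells (4.04, SE 0.29, adjusted p = 1.4e-05). Of 12 small leucine-rich proteoglycan genes 0 were linked. Of 22 genes of resident fibroblasts 0 were linked either, and 14 of that list fell in the average.

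Genes of other cell types were also among the linked ones. Of the 20 macrophage and monocyte markers 3 were linked, Csf1r, Cx3cr1 and Ctss, and 18 of the 20 rose at day 7. Cx3cr1, a chemokine receptor, averaged 4.88 (SE 0.83, adjusted p = 0.0046) and Ctss, cathepsin S, 4.08 (SE 0.51, adjusted p = 0.0018). The summed level of the 20 markers was given above. Its part in the shares of linked genes that rose was not tested. The part of such cells in the ATAC-seq peaks that chose the regions was not tested either. In such bulk samples more cells of a type and more RNA per cell cannot be told apart. Of 16 endothelial markers 4 were linked (Emcn, Egfl7, Sox17, Erg), and the summed level was 272.9 to 419.3 CPM at day 3, 997.9 to 1298 at day 7, 833.6 to 841.6 at week 2, and 629.9 to 675.4 at week 4, against 715.7 to 905.7 CPM in uninjured cells. At day 7, 3 of the 4 linked endothelial markers rose, and in that whole list 6 rose and 1 fell. In the average 1 of the 4 rose, and 1 rose and 1 fell in the whole list. Of 10 pericyte and smooth muscle markers 3 were linked. Of 14 cardiomyocyte and 6 erythroid markers 0 were linked. Erythroid levels were 142.2 to 3717 CPM after MI, below the 4132 to 5986 CPM in uninjured cells.

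The 4 genes whose promoters are printed above rose in the average over times. Emb had 41.4 and 23.7 CPM at day 3, 76.5 and 83.9 at day 7, 104 and 30.1 at week 2, and 26.3 and 66.9 at week 4, against 8.1 and 4.29 CPM in uninjured cells (3.11, SE 0.59, adjusted p = 0.013). Mtus2 had 2.43 and 8.09 CPM at day 3, 22.3 and 32.0 at day 7, 28.0 and 43.4 at week 2, and 14.6 and 11.9 at week 4, against 4.1 and 2.84 CPM in uninjured cells (2.21, SE 0.52, adjusted p = 0.027). Mtus2 overlapped uninjured at day 3 and Emb at no time. Slc44a2 had 111 and 140 CPM at day 3, 225 and 281 at day 7, 188 and 160 at week 2, and 444 and 280 at week 4, against 96.7 and 76.6 CPM in uninjured cells (1.29, SE 0.22, adjusted p = 0.0054). Pak3 had 5.7 and 12.4 CPM at day 3, 25.1 and 25.3 at day 7, 30.6 and 25.7 at week 2, and 17.3 and 14.8 at week 4, against 5.33 and 4.88 CPM in uninjured cells (1.81, SE 0.42, adjusted p = 0.025). Every MI library of Slc44a2 and Pak3 lay above both uninjured ones. All 4 calls were lost without uninjured replicate 2, and those of Emb, Mtus2 and Pak3 also without uninjured replicate 1 (adjusted p = 0.078 to 0.3). These genes were chosen after their values were seen. Of 29 genes with a promoter inside the regions that could be tested, the others that passed in any of the 7 contrasts were Pld4, which also rose in the average, and Egfl7. The 6 that passed are 20.7% of the 29, against 20.2% of all genes tested, a share near the background.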

How the data were processed

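RNA was measured in 10 libraries and chromatin accessibility in 10 others, 2 per group, with groups read from the sample labels. The members and gene lists were chosen with earlier results of these data known. Expected counts per gene, estimated by the authors, make up the deposited RNA table. No source used here gives the program that estimated them, the strand counted or the peak thresholds, which are thus not stated. The submitters' processing notes name, with no roles, the builds GRCm38 and mm10 and the tools MACS2, Bowtie2 2.3, DESeq2, STAR 2.5.3a, FastQC and Trim Galore 0.6. Each deposited peak list is of 1 library and gives, by the narrowPeak column order, the authors' fold enrichment (a ratio), −log10 p and −log10 q of each peak, and a summit offset. Its deposited score equals 10 times the −log10 q, cut to a whole number.

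Counts were rounded and tested with edgeR 4.0.16 (R 4.3.3): TMM scaling, filterByExpr by group (14968 of 25746 genes kept; 7472 had no count), robust quasi-likelihood estimation on the 10 libraries by group (residual degrees of freedom: 5), and adjustment by Benjamini-Hochberg over all genes kept, with a threshold of 0.05. CPM are TMM-scaled and compare a gene between libraries, not genes with each other. The average over times is the mean of the 4 MI groups on the log2 scale minus uninjured, and a log2 fold change above 0 means higher after MI, or at the later time. SE is the log2 fold change divided by the square root of F. The fit was tested on simulated data with planted changes. Reads were not tied to molecules by identifiers, so PCR copies are not independent, and intervals and floors cover counting error only. Reads of related or overlapping genes may be shared. Replicates differed beyond counting noise (chi-square per degree of freedom of 51.7 or more).

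Regions were built in Python 3.11.15 with pandas 2.3.3, and motifs were searched as letters. Named genes were the 10 with the most regions, the 8 largest rises and 8 largest falls in the average among genes that averaged at least 4 in log2 CPM, with no overlap between MI and uninjured libraries, up to 4 linked genes of each list by p, and a set of genes named whatever their result, Tcf21 (not linked) among them. Linked genes with a promoter inside the regions were added where they passed in any contrast. Alternatives were DESeq2 1.42.0, other scaling and filters, a replicate block, other links, stricter peaks, leaving out each library and, chosen after seeing the data, the promoter windows and Y-linked reads as a term. No other column of per-sample values was left unmapped (0).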

Additional observations from a re-analysis of the deposited data

Results flagged for a closer look

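Of all genes tested, 13.4% passed in week 4 against day 3 and 2.42% in week 4 against day 7. Many named genes were picked by p, fold change or a call in some contrast, so their calls give no share of linked genes. In 32 cases the effect of MI on a named linked gene differed between times, by edgeR's test of week 4 against day 3 or day 7 (adjusted p between 0.00038 for Spp1 and 0.049 for Il6st, each over all 14968 genes). Both contrasts share the week 4 libraries. Of these, 9 held without each RNA library in turn and 23 were lost without at least 1.

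Higher at week 4 than at day 3 were, among those that held, Col8a2 (log2 fold change 3.93), which had 94.1 and 70.3 CPM at week 4, against 6.59 and 4.21 CPM at day 3, Myo1d (2.74), Fst (2.12), Ltbp3 (1.71), a binding protein of latent TGF-beta, Slc44a2 (1.53) and Sox9 (1.49), a factor of cartilage. The remaining higher ones were Ccn2 (2.0), Ror1 (1.8), Itga11 (1.75), Cdkn2b (1.69), Adamts2 (1.32), Fos (1.22), Il6st (0.98) and Sfrp1 (0.93). Against uninjured, Sox9, Fos and Ror1 passed as lower at day 3 and did not pass at week 4. For Fos and Ror1 the day 3 call did not hold without each library in turn. Ltbp3 and Il6st passed at no time against uninjured.

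Lower at week 4 than at day 3 were, among those that held, Spp1 (-2.63), Ccn4 (-2.32) and Il33 (-1.8), a cytokine released by damaged cells. The remaining lower ones were Cdk1 (-7.31), the kinase of mitosis, with 1.3 and 0.682 CPM at week 4, against 133 and 179 CPM at day 3, Pld4 (-2.72), Tead1 (-1.68), Postn (-1.43), Tpm1 (-0.99) and Sox4 (-0.81).

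Week 4 against day 7 gave Il6st higher (1.17), and Pld4 (-4.02), C1qtnf3 (-4.24), Ccn4 (-2.58), Postn (-2.07), Spp1 (-1.53), Tead1 (-1.48), Fn1 (-1.47) and Sox4 (-1.11) lower. Each of these 9 was lost without day 7 replicate 2. Macrophage and monocyte markers summed to 333.5 to 461.0 CPM at week 4, against 2940 to 4806 CPM at day 7 and 962.0 to 1658 CPM at day 3, and their part in these differences was not tested.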

How the results depend on the processing

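Limits. Each group had 2 libraries, which leaves 5 residual degrees of freedom. Links to the nearest gene are a convention, and a missing peak depends on the depth and threshold of its list, which are unknown. Low genes such as Plekha7 varied several-fold between libraries of a group.

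The number of regions was 612 when the MI peaks needed a −log10 q of 5 or more and 1100 when peaks had to cover 0.5 of a region or more. Leaving out 1 list gave 1763 to 3634, the highest without uninjured replicate 2.

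Linked genes called were 154 at day 3, 136 at day 7, 67 at week 2, 87 at week 4, 108 in the average, 174 for week 4 against day 3 and 39 for week 4 against day 7. In that order, linking to the nearest gene start gave 89, 75, 42, 48, 62, 97 and 17 (fewer genes have a listed start). DESeq2 gave 233, 216, 147, 150, 190, 268 and 107. In its average, 11.5% of 1291 linked genes rose, against 3.54% of all 25746 genes, those without counts included. At day 3, day 7, week 2 and week 4 DESeq2 had 10.5%, 12.7%, 9.99% and 10.4% higher, against 6.15%, 4.34%, 1.89% and 2.28%. By gene start, 9.44% of 593 linked genes rose in the average, against 2.81% of all genes tested. Without a filter on low counts, week 2 gave 137, week 4 158, the average 179 and week 4 against day 7 108. With Y-linked reads as a term, these gave 23, 54, 55 and 23. Without the filter, 10.7%, 12.1%, 11.2% and 5.71% of linked genes were higher, against 2.64%, 3.75%, 4.2% and 3.94% of all genes. With the Y term these shares were 2.15%, 4.76%, 4.57% and 1.12%, against 0.334%, 0.909%, 1.27% and 0.568%. Links within 10 kb gave 25 for week 4 against day 7, and a fit of only the groups compared gave 80 at day 7. The causes were not tested.

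Without 1 library, the 7 counts ranged over 76 to 176, 54 to 150, 36 to 78, 33 to 98, 42 to 130, 73 to 196 and 0 to 54, and the genes with 3 or more regions that rose over 10 to 21. Falls of more than 1.5 times came without uninjured replicate 1 (94 at day 3, 86 at day 7, 57 at week 4), uninjured replicate 2 (78, 55, 36, 33 and 42 in the first 5 contrasts), day 3 replicate 2 (76 at day 3, 73 for week 4 against day 3), day 7 replicate 2 (54 at day 7, 0 for week 4 against day 7), week 4 replicate 1 (48 at week 4, 78 and 4 against day 3 and day 7) and week 4 replicate 2 (47, 102 and 18).

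The replicate numbers do not pair the libraries (correlations of deviations -0.0181 to 0.0288). With a replicate block the counts were 154, 146, 71, 83, 117, 184 and 45.

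Changes of sign in the average over times touched 5 genes that had passed in no such fit. Fgfr2 (1) gave -0.44 to 1.24 without 1 library. Esf1 (-0.01) gave -0.11 to 0.06, and 0.25 with the Y term. Tead4 (-0.68) gave -2.04 to 3.92, 1.15 with the Y term and 0.07 with the block. Egr2 (0.16) gave -0.21 to 0.62. Il6 (0.25) gave -0.31 to 1.17, and -0.5 with the Y term. Of 38 named genes called in the average, 23 kept the call without each library.

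Motif shares in short windows around summits, and in shorter or longer ones, were not run, since no genome was used here.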

Other observations

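Merged regions outside chromosomes 1 to 19 and X numbered 169, of which 0 showed the pattern of the regions described.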
